A study of Mus musculus with 6 samples.

Results

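The let-7 microRNAs (miRNAs) studied here are the 10 listed genes of the family that lie outside the loci shared with miR-99/100 and miR-125: let-7a-1, let-7b, let-7c-2, let-7d, let-7f-1, let-7f-2, let-7g, let-7i, let-7j and mir-98. They were chosen by name among 898 miRNA genes in the deposited table, by a rule that uses no measured value, and each of the 10 was detected. The other 3 listed let-7 genes, let-7a-2, let-7c-1 and let-7e, lie in the miR-99/100 and miR-125 loci and served for comparison.

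The libraries came from mouse E14Tg2a embryonic stem cells, a single feeder-independent line. The ESC group (n = 3) was maintained in serum with leukemia inhibitory factor (LIF). The NC (neuronal cell) group (n = 3) was a monolayer deprived of LIF and given 1 µM retinoic acid (RA), for a total of 48 hours. LIF withdrawal and RA addition always went together, so their effects cannot be told apart. Total RNA of each replicate came from a pair of plates and was sequenced as small RNA, and the question was which miRNAs differ between the states.

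Each let-7 gene is transcribed as part of a longer primary RNA, cut by Drosha into a hairpin and by Dicer into a mature miRNA, which is loaded onto Argonaute and represses messenger RNAs that pair with its seed. Known targets include Lin28a, Hmga2 and Ras family genes. In pluripotent cells the RNA-binding protein LIN28 is known to bind the loops of let-7 precursors and to block their processing, so that mature let-7 is typically scarce until differentiation, and let-7 in turn represses Lin28. mir-98 is a let-7 family member in all but name.

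The mature 5p sequences, from RefSeq (GRCm38.p6) and matched for 10 of 10 genes, are shown because they decide how reads could be assigned between members. Capitals mark the seed, bases 2 to 8 from the 5′ end.
let-7a-1: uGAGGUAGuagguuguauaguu
let-7b: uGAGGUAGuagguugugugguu
let-7c-2: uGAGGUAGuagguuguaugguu
let-7d: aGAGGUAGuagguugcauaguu
let-7f-1 and let-7f-2: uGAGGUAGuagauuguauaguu
let-7g: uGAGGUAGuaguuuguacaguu
let-7i: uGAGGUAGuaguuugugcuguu
mir-98: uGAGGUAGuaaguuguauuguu
let-7j: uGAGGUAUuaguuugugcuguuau

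The seed GAGGUAG was shared by 9 of the 10 genes. Only let-7j had another, GAGGUAU, and its mature sequence is 24 bases long against 22 for the others. Positions counted from the 5′ end, with the let-7a base first, the differences were A19G in let-7c, A17G and A19G in let-7b, U1A and U16C in let-7d, G12A in let-7f, G12U and U18C in let-7g, and G11A and A19U in mir-98. let-7i carried 4, G12U, A17G, U18C and A19U, and let-7j carried these and G8U within its first 22 bases. The 5p sequence of let-7c-2 is identical to that of let-7c-1, and that of let-7f-1 to that of let-7f-2. The 3p sequence of let-7a-1 is identical to that of let-7c-2. The other listed 5p sequences differ from each other by at least 1 base, and values of genes that share a sequence are uncertain individually. No 5p sequence was listed for let-7a-2, the other copy of let-7a, whose reads were nearly the same as those of let-7a-1. The values of let-7a-1 are therefore uncertain in the same way.

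The hairpin stretch between the mature arms is shown for 8 of the genes, since it is the part that LIN28 is known to contact. Capitals mark GGAG and UGAU, motifs known from work on LIN28 binding.
let-7a-1 loop: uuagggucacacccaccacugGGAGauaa
let-7b loop: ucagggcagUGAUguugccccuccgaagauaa
let-7c-2 loop: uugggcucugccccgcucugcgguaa
let-7d loop: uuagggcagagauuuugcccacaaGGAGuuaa
let-7f-1 loop: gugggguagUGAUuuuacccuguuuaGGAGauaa
let-7f-2 loop: uuagggucauaccccaucuuGGAGauaa
let-7g loop: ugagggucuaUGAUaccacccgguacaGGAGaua
let-7i loop: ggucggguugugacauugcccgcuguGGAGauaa

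Searched on the RNA strand, the motif GGAG was in 6 of these 8 loops, namely let-7a-1, let-7f-1, let-7f-2, let-7i, let-7g and let-7d. Of the 635 other hairpins with both arms it was in 7.24%, and of the 21 others with a loop of the same length, 26 to 34 bases, in 4. The shorter GAU, which overlaps UGAU and can overlap GGAG, was in 7 of the 8, against 14.6% of the other hairpins and 3 of the 21. UGAU was in let-7b, let-7f-1 and let-7g, against 5.67% of the other hairpins and 0 of the 21. The let-7c-2 loop held none of the 3 motifs.

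The loci on chromosomes 13, 15 and X each hold more than 1 member. let-7a-1 (chr13:48538179-48538272), let-7f-1 (chr13:48537829-48537917) and let-7d (chr13:48536012-48536114) lie on the minus strand in exons of the long non-coding RNA 6720427I07Rik (GRCm38, GENCODE M21), with 261 and 1714 bases between neighbours. A further miRNA annotation, Gm24111, overlaps let-7f-1 on the opposite strand. let-7c-2 (chr15:85706603-85706697) and let-7b (chr15:85707319-85707403) lie 621 bases apart on the plus strand in exons of Lncppara. let-7f-2 (chrX:151912346-151912428) and mir-98 (chrX:151913214-151913321) lie 785 bases apart in introns of Huwe1, a ubiquitin ligase gene. The single genes are let-7g (chr9:106178840-106178927) in an intron of Wdr82, let-7i (chr10:122985640-122985724) in an exon of the pseudogene D630033A02Rik, and let-7j (chr3:140028249-140028370) between annotated genes.

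The deposited values were group means of size-factor normalised reads. From their decimals the whole reads of each library were recovered for 600 of 634 detected miRNAs, the 10 let-7 genes included, with 62376 to 227613 resolved reads per library. Within a group, library A has the largest size factor, B the next and C the smallest, and they could not be tied to the labelled replicates. Library C of each group stood apart in the same way. Over 221 miRNAs, its log2 deviation from A and B had a Pearson r of 0.847 (Spearman 0.883) between ESCs and NCs, as a description across miRNAs that share these libraries. That deviation had an SD of 1.32 (ESCs) and 1.16 (NCs), where A against B had 0.298 and 0.239. The tests were therefore run without and with the library set (C or not C) as a covariate, and values are given for every library. At the marker level, 6 of 6 tested ESC miRNAs (miR-290 and miR-302 clusters) were lower in NCs in both tests. Among them, mir-302c had 187, 89 and 43 reads in ESC libraries and 17, 4 and 2 in NC libraries. It could be tested only through its ESC reads. Of 8 neuronal miRNAs 4 could be tested, with 0 called without and 3 called higher with the covariate (the mir-9 copies). These copies had nearly the same reads, such as 810, 796 and 801 in ESC library A, and are not separate observations. The remaining tested one, mir-128-1, was called in neither test, with means of 80.0 in ESCs and 71.4 in NCs. mir-128-2 was at 0. The mir-124 genes had 3.07 to 8.24 normalised reads in NC libraries. Markers of other cell types were also present: 6 of 11 were above 0, with mir-1a, mir-133a and mir-143 at 0. mir-122 (0.411 in ESCs, 0 in NCs) and mir-451a (1.74 and 2.27) had very low means. The summed level of the markers was 5579 to 6630 in ESC libraries and 1746 to 5211 in NC libraries. The largest, mir-126a (endothelium), had means of 2563 in ESCs and 3086 in NCs. In NC libraries A, B and C it was at 4211, 4149 and 899. Of the 11 markers 4 could be tested, and mir-126a was called in neither test. Without the covariate 1 was called lower in NCs, mir-205 (epithelium), and with it 3 were, mir-205, mir-142 (blood cells) and mir-145a (mesenchyme), with 0 higher in either test. The part of other cells in the let-7 values was not tested, and in these bulk samples fewer cells of a type and less RNA per cell cannot be told apart.

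The let-7 genes were minor miRNAs in both states. Their summed mean was 965 normalised reads in ESCs, or 0.0837% of all miRNA signal, and 1199 or 0.0748% in NCs. The miRNA mir-10a alone took 47.1% of the NC signal, and without it the NC share was 0.141%. The highest member, let-7c-2, ranked 118 among miRNAs in ESCs and 80 in NCs, whereas let-7j ranked 371 and 419.

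**Figure D1:**
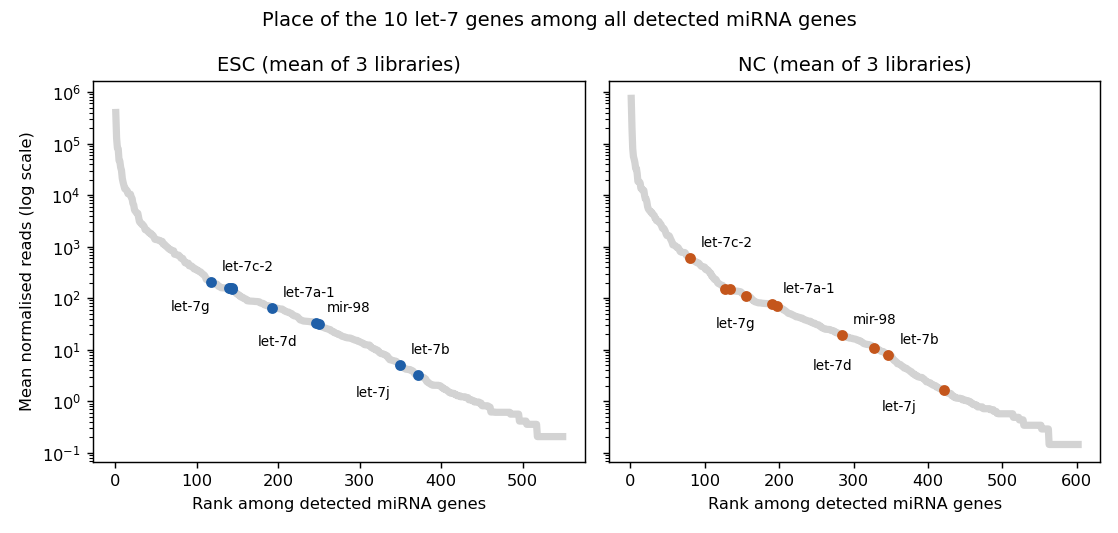
Mean normalised reads (log scale) of every detected miRNA gene by its rank in ESCs (left) and NCs (right), as a grey line, with the 10 let-7 genes as points, 7 of them named. In both panels the points spread from let-7c-2, at 210 and 604, down to let-7j, at 3.21 and 1.69.

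In ESCs, 5 members shared the top level. let-7c-2 had a mean of 210 ± 42.1 normalised reads (SD, n = 3), followed by let-7f-1 at 156 ± 37.2, let-7i at 156 ± 39.0, let-7f-2 at 155 ± 45.0 and let-7g at 151 ± 56.4. Each of these overlapped its neighbour in the order. Below them, without overlap, stood let-7a-1 at 65.3 ± 11.7, and below it mir-98 at 32.5 ± 20.3 and let-7d at 30.9 ± 14.8, which overlapped. The lowest were let-7b at 4.99 ± 3.67 and let-7j at 3.21 ± 2.21, which also overlapped.

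In NCs, let-7c-2 stood alone at 604 ± 86.1. let-7f-2 at 152 ± 29.2, let-7f-1 at 147 ± 25.6 and let-7i at 111 ± 31.0 came next and overlapped in turn. let-7a-1 at 77.0 ± 2.87 and let-7g at 69.0 ± 13.6 overlapped each other and lay below let-7i. Then came mir-98 at 19.3 ± 9.29, let-7d at 10.6 ± 3.27 and let-7b at 7.97 ± 3.67, overlapping in turn, and let-7j at 1.69 ± 0.374. The share of the members' summed level held by let-7c-2 went from 21.8% to 50.3%. The sum of the 9 other genes was 643 to 875 normalised reads in ESC libraries and 551 to 618 in NC libraries, without overlap on the deposited size factors. It leaves out let-7c-2, the member called higher, and counts the shared let-7f sequence under both genes. Its direction depends on the scaling. With NC values shifted by 0.44 on the log2 scale (equal totals without mir-10a), the NC mean of 596 no longer lies below the ESC mean of 754.

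Of the 10 members, 3 had a higher and 7 a lower mean in NCs, while 52.5% of all detected miRNAs had a higher one. The median log2 ratio of the means (pseudocount 1) was −0.28, against 0.07 over all detected miRNAs. In limma-voom on the recovered reads, 8 members passed the filter of at least 10 reads in 3 libraries, let-7b and let-7j falling below it. let-7d passed it through its 3 ESC libraries, where it was higher, with only 7 and 8 reads in NC libraries B and C. Without a covariate 1 of the 8 was called at an adjusted p (Benjamini-Hochberg over 306 miRNAs) under 0.05, let-7c-2, which was higher in NCs. Among all tested miRNAs 15.4% were called, 9.48% as higher and 5.88% as lower. With the library set as covariate 5 of the 8 were called, let-7c-2 as higher and let-7g, let-7d, mir-98 and let-7i as lower, against 43.8% of all tested, 22.5% higher and 21.2% lower. In the libraries A and B alone, the same 5 genes were called in the same directions, where 49.0% of all tested were called. With 8 members tested, neither 1 of 8 nor 5 of 8 is far from these shares, and the difference was not tested. Leaving out library A or B of 1 group under the covariate gave 3 to 4 of 8. Over all tested miRNAs, 98 of 315 and 121 of 319 were called without ESC library A or B. Without NC library A or B it was 112 of 308 and 115 of 313. Library C was not left out under the covariate.

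**Figure D2:**
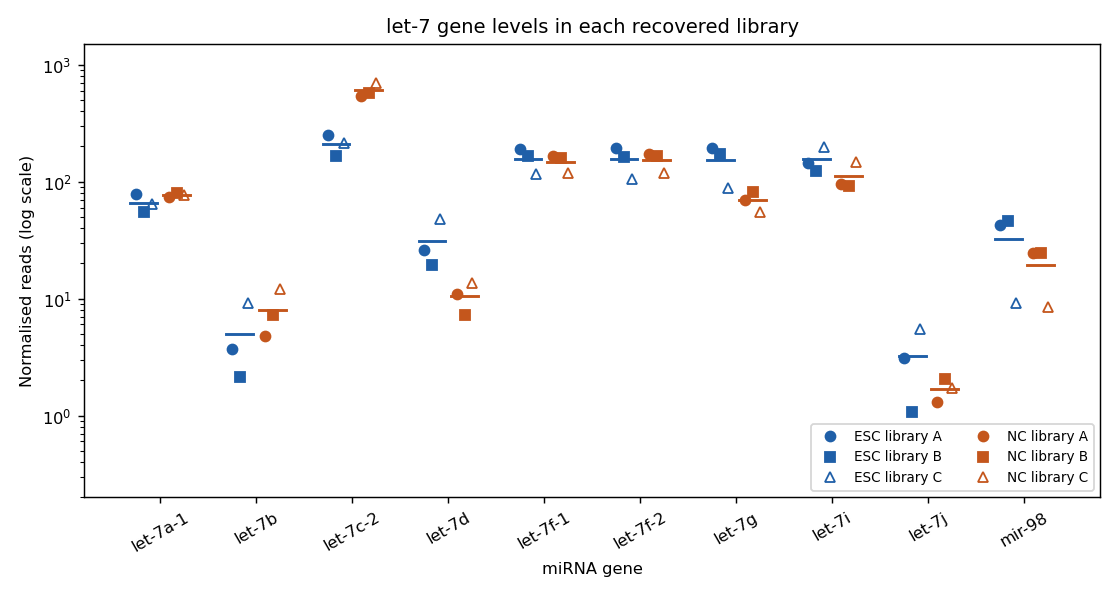
Normalised reads (log scale) of each let-7 gene in the 3 ESC libraries (blue) and 3 NC libraries (orange), with library C as open triangles and a bar at the group mean. let-7c-2 lies higher in every NC library, let-7d and let-7g lie lower in every NC library, and the other genes overlap.

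let-7c-2 was the only member that rose in both tests. Its normalised reads were 250, 166 and 214 in ESC libraries A, B and C, and 538, 572 and 701 in NC libraries. Every NC library lay above every ESC library. The ratio of the means was 2.87, and the fitted log2 fold change was 1.57 (SE 0.27, adjusted p = 0.00891 in limma-voom) without and 1.53 (SE 0.17, adjusted p = 4.87e-05) with the covariate. Without NC library B and without the covariate, the adjusted p was 0.0523. let-7b, the other gene of this locus, had 6, 2 and 5 reads in the ESC libraries and 11, 7 and 7 in the NC libraries. Its normalised levels, 2.13 to 9.13 and 4.77 to 12.0, overlapped. Tested without the filter, its log2 fold change was 0.66 (adjusted p = 0.764) and 0.64 with the covariate (adjusted p = 0.435).

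let-7g was lower in every NC library than in any ESC library. Its normalised reads were 195, 172 and 87.7 in ESC libraries A, B and C, and 70.2, 81.9 and 54.7 in NC libraries. The gap was small, since ESC library C, 2.09-fold below A and B, came near NC library B. The ratio of the means was 2.20-fold lower, and the fitted log2 fold change was −1.03 (SE 0.36, adjusted p = 0.111) without and −1.17 (SE 0.17, adjusted p = 0.000330) with the covariate. let-7g was called in each of the 8 fits with the covariate, and in 2 of 12 alternatives without it, which were the fit without ESC library C (adjusted p = 0.0117) and that of libraries A and B alone (adjusted p = 9.89e-06).

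For let-7d, too, the groups did not overlap. It had 25.9, 19.2 and 47.5 normalised reads in ESC libraries and 10.8, 7.17 and 13.7 in NC libraries, from 42, 18 and 26 reads and 25, 7 and 8 reads. Library C was the highest of its group in both states, 2.11-fold above A and B in ESCs and 1.52-fold in NCs, which is the opposite of let-7g. The mean was 2.92-fold lower in NCs. The log2 fold change was −1.38 (SE 0.45, adjusted p = 0.0962) without and −1.39 (SE 0.31, adjusted p = 0.00452) with the covariate.

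let-7i and mir-98 overlapped between the groups until library C was set apart. let-7i had 144, 124 and 199 normalised reads in ESC libraries and 95.8, 91.1 and 147 in NC libraries. Its log2 fold change was −0.50 (SE 0.30, adjusted p = 0.389) without and −0.49 (SE 0.14, adjusted p = 0.0156) with the covariate, a 1.40-fold lower mean. mir-98 had 42.5, 45.9 and 9.13 normalised reads in ESC libraries and 24.7, 24.6 and 8.55 in NC libraries. In library C, with 5 reads in each group, mir-98 was 4.84-fold below A and B in ESCs and 2.88-fold below in NCs. Its log2 fold change was −0.64 (SE 0.63, adjusted p = 0.645) without and −0.77 (SE 0.22, adjusted p = 0.0175) with the covariate. Of the 8 fits with the covariate, 4 called let-7i and 3 called mir-98, with adjusted p up to 0.105 and 0.203 in limma.

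The remaining tested genes did not pass either test. let-7a-1 had 77.7, 54.4 and 63.9 normalised reads in ESC libraries and 74.1, 79.9 and 76.9 in NC libraries. Its log2 fold change was 0.23 (adjusted p = 0.670) without and 0.19 (95% interval −0.21 to 0.60, adjusted p = 0.412) with the covariate. For let-7f-1 the values were 188, 164 and 115 in ESC libraries and 165, 159 and 118 in NC libraries, with a log2 fold change of −0.07 (adjusted p = 0.913) without and −0.08 (−0.40 to 0.23, adjusted p = 0.669) with the covariate. let-7f-2 had 195, 163 and 106 in ESCs and 171, 166 and 118 in NCs, with −0.01 (adjusted p = 0.994) without and −0.03 (−0.35 to 0.30, adjusted p = 0.899) with the covariate. The intervals with the covariate leave out a 2-fold change of these 3 genes on this scaling. let-7j had 5, 1 and 3 reads in ESC libraries and 3, 2 and 1 in NC libraries, too few for a fold change.

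**Figure D3:**
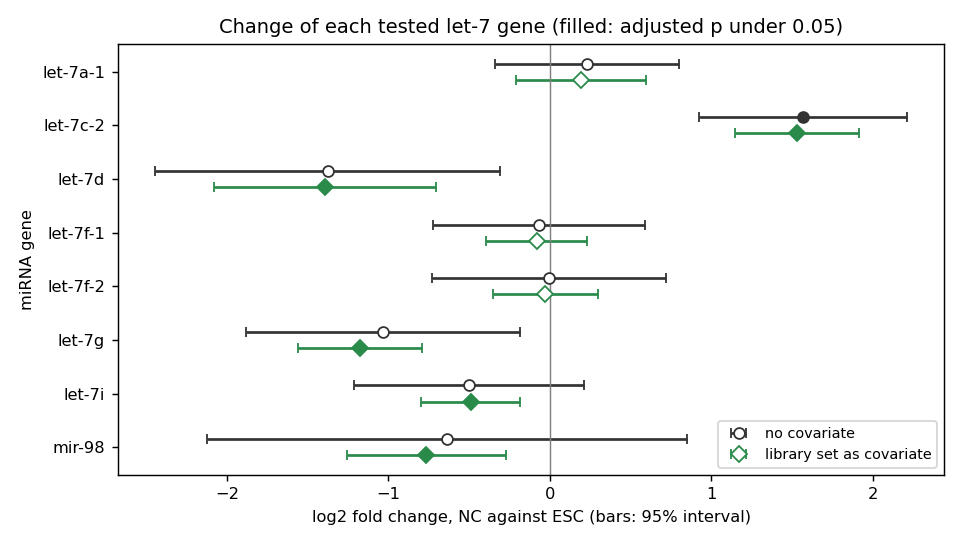
Log2 fold change of NCs against ESCs for the 8 tested let-7 genes with its 95% interval, from limma-voom without covariate (circles) and with the library set as covariate (diamonds), filled where the adjusted p is under 0.05. Only let-7c-2 is filled in both, and mir-98, let-7i, let-7g and let-7d are filled with the covariate.

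Of the 298 resolved miRNAs whose mean was 10 or more, 30.5% had no overlap between groups, 16.1% with NCs above and 14.4% with NCs below. Of the 8 members with such a mean, 3 did not overlap, 1 above and 2 below.

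The scaling between groups bears on directions. At equal total signal every NC value shifts by −0.48 on the log2 scale, and at equal totals without mir-10a by 0.44. let-7c-2 stayed higher, at 1.05 and 1.96, and let-7d (−2.02 and −1.11) and let-7g (−1.61 and −0.70) stayed lower. mir-98 was at −1.23 and −0.31, and let-7i at −0.96 and −0.04, close to no difference. By contrast let-7a-1 (−0.24 and 0.68), let-7f-1 (−0.56 and 0.36) and let-7f-2 (−0.51 and 0.41) turned with the scaling.

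**Figure D4:**
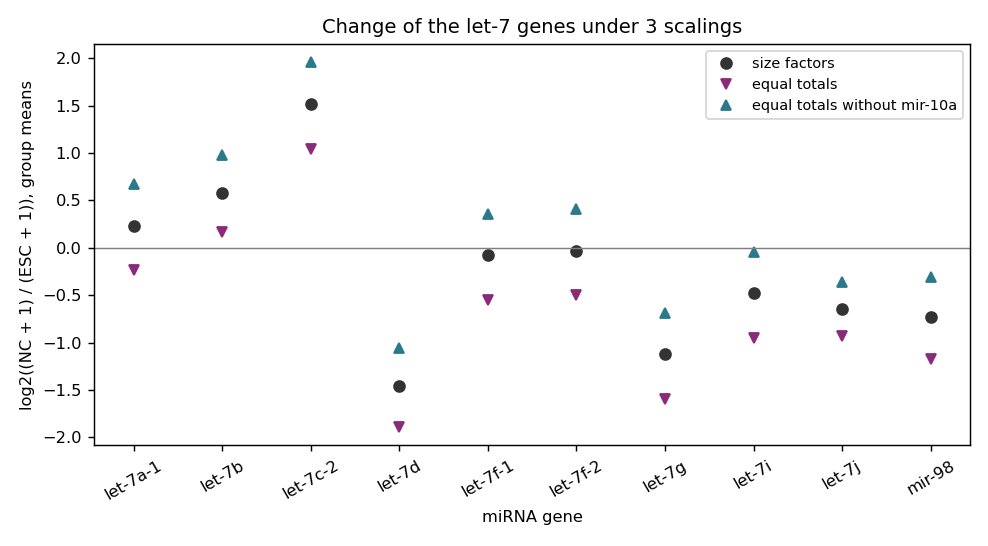
Log2 ratio of the NC to the ESC group mean (pseudocount 1) for each let-7 gene with the deposited size factors (circles), at equal totals (downward triangles) and at equal totals without mir-10a (upward triangles). let-7c-2 and let-7b stay above 0 and let-7g, let-7d, mir-98, let-7i and let-7j below it, while let-7a-1, let-7f-1 and let-7f-2 lie on both sides.

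Ratios of reads between members of 1 library do not depend on this scaling. A set of 10 such ratios, chosen after the values were seen, were compared by an exact two-sided permutation test, for which 3 against 3 libraries allow no p below 0.1. let-7c-2 reads per let-7a-1 read were 3.22, 3.06 and 3.34 in ESC libraries and 7.25, 7.17 and 9.11 in NC libraries, a 2.43-fold higher ratio (exact p = 0.1, 0.2 after Benjamini-Hochberg adjustment over 10). Library C of the ESCs was close to A and B in this ratio. These genes share their 3p sequence. let-7g reads per let-7a-1 read were 2.51, 3.16 and 1.37 in ESC libraries and 0.947, 1.03 and 0.711 in NC libraries, 2.50-fold lower (exact p = 0.1, adjusted 0.2). let-7g reads per let-7f-1 read were 1.04, 1.05 and 0.762 in ESC libraries and 0.425, 0.516 and 0.464 in NC libraries, 2.01-fold lower (exact p = 0.1, adjusted 0.2). let-7g was about as abundant as let-7f-1 in ESCs A and B and lower than it in every NC library.

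The next ratios pair genes listed at a shared locus. Reads of let-7a-1, let-7c-2 and the let-7f genes cannot be assigned to a single copy (below), so they need not compare products of 1 locus. For the chromosome 13 genes, let-7d reads per let-7a-1 read were 0.333, 0.353 and 0.743 in ESC libraries. They were 0.146, 0.0897 and 0.178 in NC libraries, 3.35-fold lower (exact p = 0.1, adjusted 0.2). let-7d per let-7f-1 went from 0.138, 0.117 and 0.413 to 0.0656, 0.0452 and 0.116, 2.68-fold lower, with ESC library B just above NC library C. The ratio of let-7f-1 to let-7a-1, the other pair of this locus, overlapped, at 1.80 to 3.02 and 1.53 to 2.23 (exact p = 0.4, adjusted 0.444). For the genes listed in the Huwe1 introns, mir-98 reads per let-7f-2 read were 0.218, 0.281 and 0.0862 in ESC libraries and 0.145, 0.148 and 0.0725 in NC libraries. They overlapped through ESC library C (exact p = 0.4, adjusted 0.444). let-7i per let-7a-1 and per let-7f-1 and let-7b per let-7c-2 overlapped as well (exact p of 0.2, 0.5 and 0.4). In all, 5 of the 10 ratios did not overlap, 4 lower and 1 higher in NCs. The 4 lower ones are let-7d and let-7g, each over let-7a-1 and let-7f-1, and are not separate observations. No share over other pairs of miRNAs was computed, so this count is not a result about the let-7 genes.

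**Figure D5:**
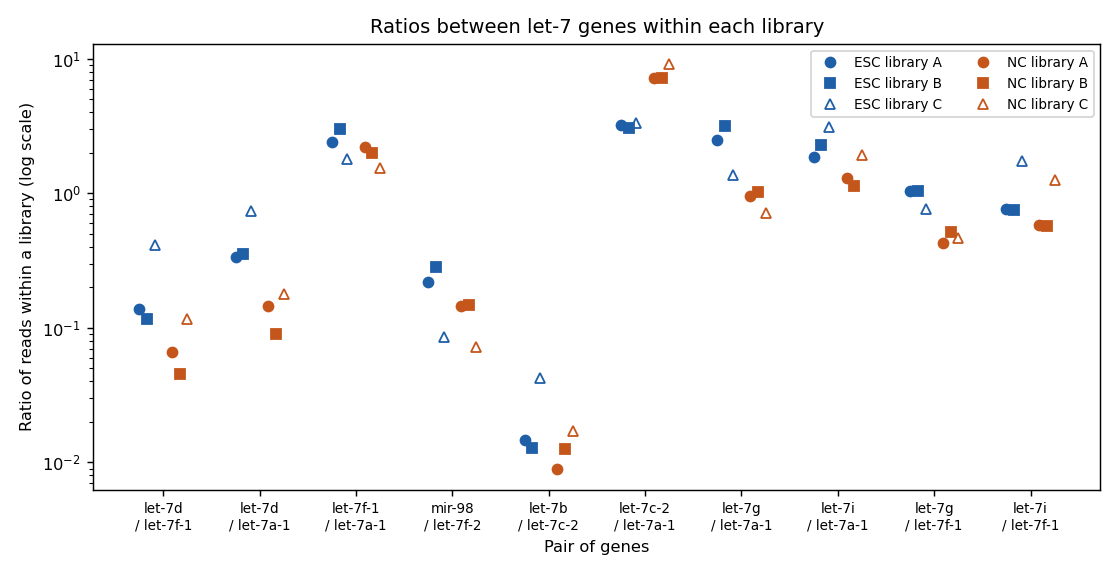
Ratio of reads of 2 let-7 genes within each library (log scale), in ESC (blue) and NC (orange) libraries, with library C as open triangles. The ratios of let-7d and let-7g to let-7a-1 and to let-7f-1 lie lower in every NC library, and that of let-7c-2 to let-7a-1 lies higher.

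Copies of a gene had nearly the same counts. In the pairs let-7a-1 and let-7a-2, let-7c-1 and let-7c-2, and let-7f-1 and let-7f-2, the reads of a library differed by less than the counting SD of the difference in 18 of 18 comparisons, and by at most 7.94%. For example, let-7c-1 and let-7c-2 had 1235 and 1240 reads in NC library A. The let-7f copies are on different chromosomes, and how shared reads were counted is not given in the sources used here. The values of let-7a-1, let-7c-2 and the let-7f genes can therefore not be assigned to a single copy, and the 1 member called without a covariate, let-7c-2, is not separable from let-7c-1. The 4 members lower with the covariate have mature sequences of their own.

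In the neighbouring let-7 genes of the miR-99/100 and miR-125 loci, let-7c-1 had a log2 fold change of 1.57 (SE 0.27, adjusted p = 0.00879 in limma-voom) without and 1.53 (adjusted p = 3.73e-05) with the covariate. let-7e, whose seed is the same, had 0.94 (adjusted p = 0.0893) without and 0.87 (adjusted p = 0.00110) with the covariate. let-7a-2 had 0.28 (adjusted p = 0.598) and 0.24 (adjusted p = 0.335) and passed neither test. Of the 6 locus partners 4 could be tested, and all 4, mir-99a, mir-100, mir-125b-1 and mir-125b-2, rose in both tests. The other two, mir-99b and mir-125a, were too abundant to be resolved. They held most of the partners' summed level, with means of 10576 and 8614 normalised reads in ESCs and 13468 and 8399 in NCs. Of the 6 miRNAs known to repress Lin28, all but mir-125a, the most abundant of them, were tested, of which mir-125b-1 and mir-125b-2 rose without the covariate and the 3 mir-9 copies also did so with it. mir-125b-1 went from 64.0 to 404 normalised reads and mir-9-1 from 423 to 768. The mir-125b copies had nearly the same reads, such as 681 and 675 in NC library A, and are not separate observations in either list. mir-100, with 6, 5 and 13 reads in ESC libraries, could be tested only through its NC reads. mir-1961, the further listed miRNA with the seed GAGGUAG, was at 0 in both groups.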

How the data were processed

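Small RNA of 3 ESC and 3 NC samples was sequenced, with groups as labelled. For 898 miRNA genes the authors deposited a single table, whose signal columns hold group means of counts divided by size factors; the submitters' notes name DESeq and mm10. The deposited fold change (plain and log2) and p-value columns (raw and adjusted) hold the authors' comparison and were not used. Adapter trimming, aligner, miRNA annotation, use of strand and counting of shared reads are not given in the sources used here.

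Each mean combines the whole reads of 3 libraries, each times a constant, so reads per library were recovered by enumeration from 10 decimals, in ESCs for 524 of the 549 listed above 0 (95.4%) and in NCs for 570 of the 602 (94.7%). The unresolved ones are the most abundant, and the resolved hold 10.2% and 6.43% of the signal. ESC libraries A, B and C had size factors of 1.62, 0.937 and 0.547, and NC libraries 2.31, 0.977 and 0.585. In simulated data 489 of 489 and 525 of 525 resolved miRNAs were right. A count of 0 allows up to 3 reads, which is 1.30 to 5.48 normalised reads by library and covers counting error only.

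voom weights and limma 3.58.1 under R 4.3.3 were fitted to 306 miRNAs with at least 10 reads in 3 libraries, without covariate, with Benjamini-Hochberg adjustment. With 200 of 600 miRNAs changed 4-fold in simulated counts of this comparison, 91 of 104 tested were called and 0 falsely, and with the library set as covariate 103, with 5 false (4.63%). The simulated C libraries of both groups had an identical deviation, whereas in the data the deviations had a Pearson r of 0.847. The simulated share of false calls with the covariate can therefore not be carried over to the data. Alternatives left out each library or changed libraries, covariate, weights, filter, scaling and threshold. The plan kept a count model for deposited counts per library, and the table holds means, so none was run on the recovered reads. Sequences were read from RefSeq (GRCm38.p6), the hairpin loops of some members are not reported here, and positions compared with GENCODE M21. Other steps ran in Python 3.11.15 (scipy 1.17.1, numpy 2.4.6, pandas 2.3.3). The genes named were the members, the other let-7 genes, the pathway and marker lists, and the 5 miRNAs most correlated with the members' median profile. Members and lists were all chosen with earlier results of these data known. The labels number the miRNA replicates and name no separate cultures, so p-values measure the spread between these samples.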

Additional observations from a re-analysis of the deposited data

How the results depend on the processing

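No paired analysis was possible because no replicate number is attached to a recovered library. Without a covariate, 1 member was called, and leaving out 1 library gave 0 to 2. It was 0 without NC library B, when 22 of 313 miRNAs were called. It was 2 without ESC library C, when let-7g was added and 45 of 319 miRNAs were called. The count was 5 in the libraries with the larger size factors and 5 with the library set as covariate. With the covariate, in combinations chosen after the data were seen, it was 3 to 4 without library A or B of 1 group. It was 4 of 8 with limma-trend (120 of 306 miRNAs called) and 4 of 10 without the filter on low counts (132 of 600). Scaled to the total without mir-10a, it was 5 of 8 (137 of 306). That total covers only miRNAs resolved in both groups, which leaves out the most abundant ones. It is therefore not the scaling at equal totals without mir-10a of the group means, under which no calls were made. Over all miRNAs 47 were called without and 134 with the covariate. The other planned filters, weights, scalings and the 2-fold threshold left the count at 1. With at least 10 reads in every library only 6 members were tested, without let-7d and mir-98.

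The let-7c-2 rise missed the threshold only without NC library B (1.61). The sign of let-7f-1 turned without ESC library A (0.06), without NC library C (0.11), with quantile normalization (0.049) and in library C alone (0.036), and was lowest, at −0.26, without ESC library C. That of let-7f-2 turned without ESC library A (0.16), ESC library B (0.06) or NC library C (0.19), with at least 10 reads in every library (0.0069), with quantile normalization (0.15), in library C alone (0.16), and with the covariate without ESC library A (0.076) or NC library B (0.0019), and it was lowest, at −0.24, without ESC library C. No other member's sign turned in any fit.

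The median of −0.28 went to −0.74 at equal totals and 0.16 at equal totals without mir-10a, by the shift itself, and was −0.48 with let-7f counted once. Counting let-7f once, the members' share was 0.0702% in ESCs and 0.0655% in NCs, and without mir-10a the NC share was 0.141%. Of 9 neighbouring pairs in the order of levels, 7 kept it in each ESC library and 9, 7 and 6 in NC libraries A, B and C. Depth limits let-7b and let-7j, mir-98 in library C, and let-7d, with 7 and 8 reads in NC libraries B and C.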

Other observations

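The 5 miRNAs outside the family whose profile over the 6 libraries was most like the median let-7 profile, among 242 with a mean of at least 20, were mir-3470b (Pearson r = 0.962), mir-200a (0.877), mir-669c (0.831), mir-376b (0.823) and mir-135b (0.820). The 6 points share the deviation of library C, so this describes the libraries and was not tested.

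The loop motifs of the 8 let-7 genes searched are set beside the calls here, as a description with no test. Among genes lower in NCs with the covariate, let-7d, let-7g and let-7i hold GGAG, and let-7a-1, let-7f-1 and let-7f-2, which passed neither test, hold it too. let-7c-2, the member called higher, holds none of the 3 motifs, but its reads are not separable from those of let-7c-1, whose loop holds GGAG. The loop of let-7e, called higher with the covariate, holds GGAG too. let-7b, which was not called, lacks GGAG. UGAU is in let-7g, which was lower with the covariate, and also in let-7f-1 and let-7b, which were not called.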
